A study of Homo sapiens with 20 samples.

Results

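The genes described here are 8 members of the caspase machinery, CASP1, CASP2, CASP6, CASP8, CASP9, CASP10, APAF1 and PIDD1. They were chosen by gene name from a total of 34439 protein_coding and lncRNA genes that had a transcript in the files, and 7 of the 8 could be tested among 27697 tested genes. They were measured by poly(A) RNA-seq in NGP, a MYCN-amplified human neuroblastoma cell line, in 10 samples treated with nutlin-3 (a racemic mixture at 8 µM) and 10 samples treated with the vehicle ethanol. Both groups were the same line with no engineered change, grown in 6-well flasks, and the time under treatment is not given in the sources used here. The samples are called biological replicates in the methods, but they come from 1 cell line, so the p-values measure the spread between cultures of that line. In these bulk samples fewer expressing cells and less RNA per cell cannot be told apart.

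Caspases are cysteine proteases that cells hold as inactive precursors. Initiator caspases are switched on by being brought together on a platform: CASP9 on the apoptosome, which APAF1 builds with cytochrome c, CASP8 and CASP10 on death receptors through FADD, and CASP2 on the PIDDosome, which PIDD1 builds with the adaptor CRADD (RAIDD). Executioners such as CASP6 then cut cellular proteins, while CASP1 serves inflammasomes. Nutlin-3 blocks the binding of MDM2 to p53, and PIDD1 is a known p53-induced gene.

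PIDD1 rose 17.3-fold under nutlin, while the caspase that it activates, CASP2, fell by 24.1%. The apoptosome pair moved in opposite directions, with CASP9 higher and APAF1 lower. The executioner CASP6 fell to 0.538 of its vehicle level. CASP8 and CASP10, the death receptor caspases, did not pass the test, and no read pair was assigned to CASP1 in any sample. Thus 2 of the 7 tested members were called as significantly differentially expressed (SDE) and up, 3 as down and 2 were not called, by edgeR's quasi-likelihood test at 5% FDR. Nutlin changed much of the transcriptome by the same call, 58.8% of all tested genes (32.3% up and 26.5% down). The median log2 fold change (LFC, nutlin over vehicle) was −0.20 over the tested members and 0.19 over all tested genes. The former is the LFC of CASP10 itself, a barely detected gene, and the members' median ran from −0.47 to 0.48 over the alternatives, with 0.47 under an effective length offset. The 10 values of one condition lay wholly above or below the 10 of the other in 4 members, against 28.8% of all tested genes (12.2% higher and 16.6% lower under nutlin).

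**Figure D1:**
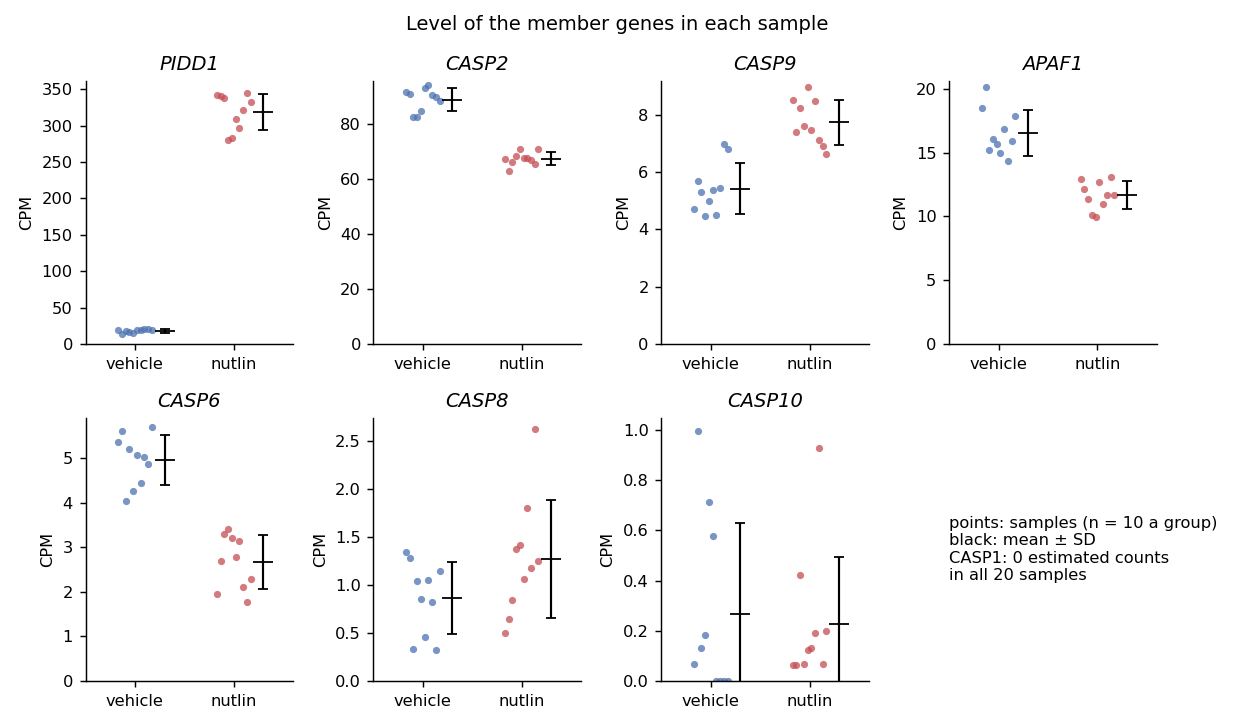
Level in CPM (estimated counts scaled to a common library size with TMM factors) of the 7 tested members in each of the 10 vehicle and 10 nutlin samples, with the mean ± SD in black (in CASP10 the lower bar ends at 0). PIDD1 lay between 13.8 and 21.4 CPM with vehicle and between 281 and 345 CPM with nutlin, CASP2, APAF1 and CASP6 were lower in every nutlin sample, and CASP8 and CASP10 overlapped.

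Library totals ranged from 14455477 to 19532971 estimated counts with vehicle and from 15078052 to 17442896 with nutlin. The TMM factors, which correct for the make-up of a library, were 0.879 to 0.973 with vehicle and 1.01 to 1.10 with nutlin, and did not overlap. The treatment check behaved alike in all samples: MDM2 rose from 245 to 5564 CPM and CDKN1A from 32.8 to 1679 CPM, with no overlap. All 9 neuroblastoma markers were detected, with a summed level of 7890 to 9021 CPM with vehicle and 7580 to 9155 CPM with nutlin. The leukocyte markers summed to 2.69 to 4.96 CPM with vehicle and 8.83 to 14.1 CPM with nutlin; 3 of 6 tested rose (LYZ, CD68 and ITGAM) and 0 fell, CD3E was at 0 in every sample and PTPRC had at most 6.36 counts. The stromal, endothelial and epithelial markers summed to 27.5 to 35.7 CPM and 46.5 to 59.4 CPM, and 4 of 8 rose and 2 fell. These 2 marker sums were higher under nutlin in every sample, as was PIDD1, and their part in the members' results was not tested.

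PIDD1 (ENSG00000177595) encodes the death domain protein on which the PIDDosome is assembled. The gene lies on the minus strand at chr11:799179-809753 (GRCh38, GENCODE 44). Its level ranged from 13.8 to 21.4 CPM with vehicle, with a median of 19.3, and from 281 to 345 CPM with nutlin, with a median of 327. Every nutlin sample lay far above every vehicle sample. The LFC was 4.12 ± 0.073 (SE; n = 10 per group; adjusted p = 4.56e-29, edgeR quasi-likelihood test with Benjamini-Hochberg adjustment). Of 15168 genes whose mean reached 1 CPM, PIDD1 had the 129th largest LFC. The means were 18.4 ± 2.42 CPM (SD) with vehicle and 319 ± 24.9 CPM with nutlin, and the LFC was 4.76 with protein_coding transcripts alone.

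PIDD1-201 and PIDD1-205 begin near position 805231, and PIDD1-210 and PIDD1-211 begin farther upstream, at positions 809499 and 809460; these 4 rose, while PIDD1-208, which begins farthest upstream at 809753, was not called. The 250 bases before that start (RefSeq, GRCh38.p14, chr11:805232-805481, minus strand, within the first intron of PIDD1-210 and PIDD1-211) are shown, since the coding transcript PIDD1-201 and the transcript PIDD1-205 both begin there, with each CG pair in capitals, 34 in all.
PIDD1 upstream window: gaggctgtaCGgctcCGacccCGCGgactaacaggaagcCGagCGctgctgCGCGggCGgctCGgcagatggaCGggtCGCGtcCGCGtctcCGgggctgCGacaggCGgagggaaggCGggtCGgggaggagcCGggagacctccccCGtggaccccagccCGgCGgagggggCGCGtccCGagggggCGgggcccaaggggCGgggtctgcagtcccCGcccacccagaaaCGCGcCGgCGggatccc

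Of the 9 PIDD1 transcripts tested, 8 rose and 0 fell, and over all members 10 of 47 tested transcripts rose and 3 fell. Of all 119877 tested transcripts, 23.3% were called (12.7% up and 10.7% down). PIDD1-201, the full-length coding transcript of 16 exons, rose from a median of 48.6 estimated counts (24.5 to 101) to 1555 (1106 to 1812). Its LFC was 4.83 ± 0.20 (adjusted p = 1.53e-14, edgeR quasi-likelihood test), and its share of the gene's counts was 19.3% ± 8.14 (SD) with vehicle and 31.2% ± 2.41 with nutlin. PIDD1-203, of the type nonsense_mediated_decay, rose less, from 66.6 counts (50 to 89.7) to 716 (508 to 773), with an LFC of 3.27 ± 0.11. Its share was 25.0% ± 4.75 with vehicle and 13.7% ± 1.29 with nutlin. PIDD1-209, of the same type, rose from 12.8 counts (8.85 to 38.6) to 431 (290 to 605), with an LFC of 4.47 ± 0.25.

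The make-up of PIDD1 transcripts changed between the conditions (adjusted p = 9.14e-10, diffSpliceDGE), a call that 45.3% of the 10026 genes with several transcripts received. By the test of single transcripts, PIDD1-201 gained 0.47 log2 units over the rest of the gene (adjusted p = 0.0053) and PIDD1-203 lost ground by −0.61 (adjusted p = 0.0036), beside 8.59% of all 45742 transcripts called in this test. The short transcript PIDD1-211 also gained (1.15, adjusted p = 0.029), from at most 11.8 counts to between 119 and 198. The exception was PIDD1-208, a transcript of 2 exons at chr11:805777-809753 that shares no base with the coding part, named here after its values were seen. It had 7.54 to 15.3 counts with vehicle and 10.8 to 24.1 with nutlin, so that the groups overlapped, and was not called (LFC 0.52 ± 0.15, adjusted p = 0.098). Its change relative to the rest of PIDD1 was −2.52 log2 units (adjusted p = 9.4e-06).

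**Figure D2:**
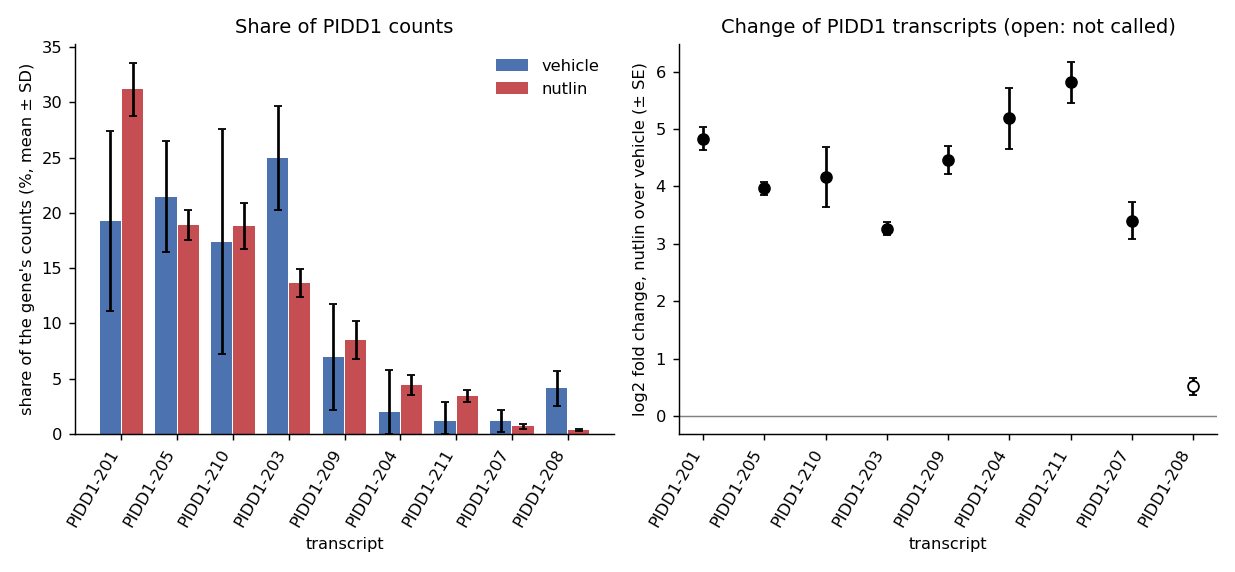
Left, the share of PIDD1 counts in each of the 9 tested transcripts, as the mean ± SD in percent over 10 samples per condition (lower bars end at 0). Right, the LFC ± SE of each transcript on a log2 axis. PIDD1-201 went from 19.3% to 31.2% of the counts, PIDD1-203 from 25.0% to 13.7%, and PIDD1-208 had the lowest LFC of the 9, at 0.52.

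A large part of PIDD1 RNA was assigned to transcripts that keep introns. PIDD1-205 and PIDD1-210, of the type retained_intron, together held 38.9% ± 9.23 of the counts with vehicle and 37.7% ± 2.45 with nutlin, and the ranges overlapped (23.5 to 52.8% and 33.9 to 42.7%). Both rose, PIDD1-205 with an LFC of 3.97 ± 0.12 (adjusted p = 1.08e-16) and PIDD1-210 with an LFC of 4.17 ± 0.53 (adjusted p = 5.13e-09), and neither moved against the rest of the gene (usage adjusted p = 0.76 and 0.996). PIDD1-201 has 15 introns. Of the type nonsense_mediated_decay, PIDD1-203 keeps its intron 3 and PIDD1-211 its intron 14, and the shares above leave them out. PIDD1-203 held 25.0% of the counts with vehicle and 13.7% with nutlin, and PIDD1-211 held 1.14% and 3.43%. The share of all transcripts that keep an intron is thus larger than that of the retained_intron type. Intron 10, of 72 bases (chr11:800913-800984, minus strand), is among those that PIDD1-205 and PIDD1-210 both keep. It is shown as an example, with the splice dinucleotides at its ends in capitals.
PIDD1 intron 10: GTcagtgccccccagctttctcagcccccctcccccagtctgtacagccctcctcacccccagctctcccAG

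CASP2 (ENSG00000106144; chr7:143288215-143307696, plus strand) encodes the initiator caspase of the PIDDosome. It was the most evenly measured member, with a coefficient of variation of 4.66% among vehicle and 3.57% among nutlin samples. Its level was 82.4 to 93.8 CPM with vehicle (median 90.0) and 62.8 to 70.8 CPM with nutlin (median 67.2). All nutlin samples lay below all vehicle samples. The LFC was −0.40 ± 0.027 (SE, n = 10 per group; adjusted p = 6.53e-12, edgeR quasi-likelihood test), and it was −0.21 when libraries were scaled by their totals alone, a setting that raised the median LFC of all genes by 0.18.

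The fall of CASP2 was uneven among its transcripts. CASP2-201, the coding transcript of 11 exons that held 86.9% of all CASP2 counts, fell from a median of 1192 counts (1001 to 1445) to 871 (815 to 949), with an LFC of −0.49 ± 0.024 (adjusted p = 4.42e-11). CASP2-206 instead rose, from 77.3 counts (51.5 to 127) to 116 (94.7 to 152), with an LFC of 0.52 ± 0.13 (adjusted p = 0.0073). CASP2-206 differs from CASP2-201 in its start (143289588 against 143288351), its end (143305822 against 143307696) and a cassette exon of 61 bases at chr7:143300380-143300440 (GRCh38, plus strand), between exons 8 and 9 of CASP2-201. Its share of the counts is therefore not a measure of exon inclusion alone. Inclusion of an exon near the end of the coding sequence is known to give the short form, caspase-2S.
CASP2 cassette exon: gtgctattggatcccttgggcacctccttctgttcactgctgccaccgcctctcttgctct

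Since 61 is no multiple of 3, the exon shifts the reading frame. Read from the start codon of CASP2-201, a message with the exon meets a stop after 343 codons, where CASP2-201 has 452. The annotation assigns CASP2-206 no coding sequence. CASP2-206 made up 4.15 to 9.35% of CASP2 counts with vehicle (mean 6.03% ± 1.54, SD) and 8.84 to 14.1% with nutlin (mean 11.3% ± 1.41). The ranges met only at their edges. CASP2 transcript make-up differed between conditions (adjusted p = 4.66e-10, diffSpliceDGE), a call that 45.3% of genes tested for usage received. By the test of single transcripts, CASP2-206 gained 0.63 log2 units over the rest of the gene (adjusted p = 0.021), beside 8.59% of all transcripts called. CASP2-201 did not pass that test (−0.077, adjusted p = 0.71). The share of protein_coding transcripts was 87.0 to 92.5% with vehicle and 80.9 to 85.2% with nutlin, without overlap.

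**Figure D3:**
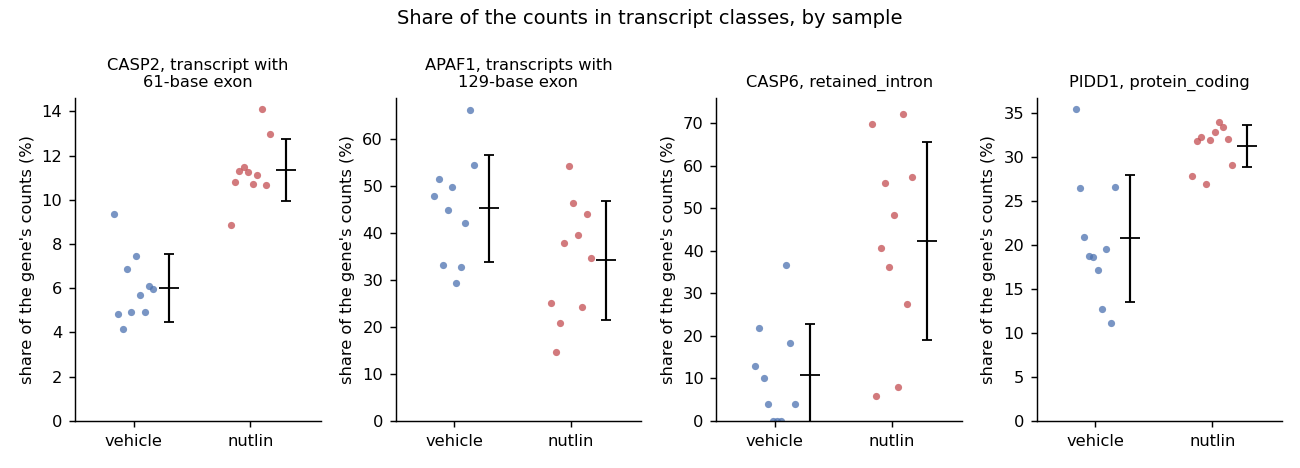
Share of the gene's estimated counts, in percent, in 4 transcript classes, for each of the 10 vehicle and 10 nutlin samples, with the mean ± SD in black (in CASP6 the lower vehicle bar ends at 0). On average, CASP2-206, the CASP2 transcript with the 61-base exon, went from 6.03% to 11.3% and the CASP6 retained_intron class from 10.8% to 42.2%. The PIDD1 protein_coding class went from 20.7% to 31.2%, and the APAF1 transcripts with the 129-base exon (45.2% and 34.2%) overlapped widely. The sample ranges overlapped in all 4 classes, for PIDD1 11.2 to 35.5% with vehicle and 26.9 to 34.0% with nutlin.

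APAF1 (ENSG00000120868; chr12:98645290-98735433, plus strand) encodes the scaffold of the apoptosome. Its level was 14.3 to 20.1 CPM with vehicle (median 16) and 10 to 13.1 CPM with nutlin (median 11.7). The nutlin samples all lay below the vehicle samples. The LFC was −0.50 ± 0.064 (adjusted p = 7.79e-08, edgeR quasi-likelihood test), and −0.31 with scaling by library totals alone. Exons of APAF1 share 750 bases with ANKS1B on the opposite strand; the library kit marks strand, but whether the quantification used it is not given in the sources used here. The mean count of ANKS1B was 24.0 with vehicle and 29.3 with nutlin, beside 252 and 182 for APAF1.

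APAF1 transcripts differ by a cassette exon of 129 bases at chr12:98703371-98703499 (GRCh38, plus strand), held by APAF1-204, APAF1-209 and APAF1-210 and absent from APAF1-202. The exon is 43 codons long and keeps the frame, and it lies in the stretch of WD40 repeats that sense cytochrome c.
APAF1 cassette exon: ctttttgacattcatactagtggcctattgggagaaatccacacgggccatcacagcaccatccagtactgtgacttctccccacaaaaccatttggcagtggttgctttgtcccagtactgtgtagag

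The exon-holding transcripts made up 29.3 to 66.2% of APAF1 counts with vehicle (mean 45.2% ± 11.3) and 14.7 to 54.3% with nutlin (mean 34.2% ± 12.6), with a wide overlap. One of them, APAF1-209, fell from a median of 80.4 counts (1.80 to 127) to 10.4 (0 to 58.4), with an LFC of −2.33 ± 0.84 (adjusted p = 0.039). APAF1-210, which also holds the exon, had 27.0 counts (0.70 to 69.2) with vehicle and 39.9 (17.0 to 67.6) with nutlin and was not called (adjusted p = 0.45). Transcript APAF1-202, without the exon, had 138 (46.9 to 191) and 93.3 counts (54.8 to 152) and was not called either (adjusted p = 0.20). The values of single APAF1 transcripts spread widely within each condition. The make-up was called as changed by diffSpliceDGE (adjusted p = 0.0070), as in 45.3% of genes tested for usage, and not by limma's diffSplice (adjusted p = 0.11). APAF1-205 was called up (adjusted p = 0.021) on at most 2.09 counts with vehicle and 9.45 with nutlin.

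CASP9 (ENSG00000132906; chr1:15490832-15526534, minus strand) encodes the caspase that APAF1 activates. It had 4.47 to 6.99 CPM with vehicle (median 5.34) and 6.63 to 8.95 CPM with nutlin (median 7.53). The groups overlapped at their edges, and 8 of 10 nutlin samples lay above the highest vehicle sample. The LFC was 0.52 ± 0.083 (adjusted p = 5.70e-06, edgeR quasi-likelihood test). No single CASP9 transcript was called among those tested, including the 5 with at least 5% of the counts (CASP9-201, CASP9-202, CASP9-203, CASP9-204 and CASP9-210), whose LFCs ran from 0.13 to 0.93. The make-up of CASP9 transcripts did not pass the test (adjusted p = 0.90). As a ratio of TPM, which is scaled by transcript length, APAF1 over CASP9 was 0.604 to 1.25 with vehicle (mean 0.926 ± 0.211) and 0.390 to 0.682 with nutlin (mean 0.517 ± 0.10); the ranges overlapped in part.

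CASP6 (ENSG00000138794; chr4:109688622-109703583, minus strand) encodes an executioner that cuts lamin A. Its level was 4.05 to 5.71 CPM with vehicle (median 5.05) and 1.77 to 3.42 CPM with nutlin (median 2.74). The groups did not overlap. The LFC was −0.89 ± 0.12 (adjusted p = 6.18e-08, edgeR quasi-likelihood test). It was −1.56 when only protein_coding transcripts were counted and −0.46 with an offset for effective transcript length, and it stayed called in both. At 60.1 to 95.1 counts per vehicle sample and 27.4 to 55.4 per nutlin sample, CASP6 transcripts rested on few reads.

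The coding transcript CASP6-201 fell from a median of 55.1 counts (30.4 to 82.8) to 12.4 (0 to 40.7), an LFC of −2.07 ± 0.54 (adjusted p = 0.0099). CASP6-206, of the type retained_intron, had 3.73 counts (0 to 10.9) with vehicle and 13.5 (0 to 21.5) with nutlin and was not called (LFC 1.31 ± 0.51, adjusted p = 0.21). CASP6-208, with no coding sequence assigned, had 6.15 (0 to 16.6) and 3.65 counts (0 to 10.4) and was not called (adjusted p = 0.68). As a share of CASP6 counts, the retained_intron class was 0 to 36.6% with vehicle (mean 10.8% ± 12) and 5.97 to 72.3% with nutlin (mean 42.2% ± 23.2). The ranges overlapped, and CASP6 had too few counts for the usage test. CASP6 shares 98 exon bases with MCUB on the opposite strand, whose mean count was 18 with vehicle and 4.4 with nutlin.

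CASP8 (ENSG00000064012; chr2:201233443-201361836, plus strand) encodes the main caspase of death receptors. It had 0.325 to 1.34 CPM with vehicle (median 0.947) and 0.501 to 2.62 CPM with nutlin (median 1.21), that is 4.39 to 19.8 and 8.44 to 40.1 estimated counts. The groups overlapped, with 4 of 10 nutlin samples above the highest vehicle sample. The LFC was 0.53 ± 0.28 (adjusted p = 0.090, edgeR quasi-likelihood test). The call depended on the settings: it passed in 4 of 10 alternatives, with adjusted p-values from 0.0226 (scaling by library totals) to 0.36 (protein_coding transcripts only). Most CASP8 counts, 59.6%, were assigned to the coding transcript CASP8-202, and no CASP8 transcript was called. The other CASP8 transcripts with at least 5% of the counts (CASP8-203, CASP8-204, CASP8-212 and CASP8-217) were at 0 in 4 or more vehicle libraries and had at most 11.9 counts in any sample.

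CASP10 (ENSG00000003400; chr2:201182872-201229428, plus strand), the neighbour and close relative of CASP8, was barely detected. It had 0 to 14.2 estimated counts with vehicle (median 1.72) and 1.12 to 14.9 with nutlin (median 2.23), and 4 of the 10 vehicle libraries were at 0. The median lay below 3 counts in both conditions. CASP10 was not called (LFC −0.20 ± 0.46, adjusted p = 0.81), and the sign of its LFC turned under 2 alternatives. In TPM the mean was 0.198 with vehicle and 0.412 with nutlin, opposite to the CPM means of 0.267 and 0.225. The short retained_intron transcript CASP10-211, of 474 bases, had at least 1.12 counts in every nutlin sample and was at 0 in 7 vehicle libraries; it was not called (adjusted p = 0.28). The coding transcripts CASP10-202 and CASP10-204 were each at 0 in 8 vehicle libraries, and in 8 and 10 nutlin libraries.

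CASP1 (ENSG00000137752; chr11:105025397-105035250, minus strand), the inflammasome caspase that matures interleukin-1β, had 0 estimated counts in each of the 20 samples over 13 transcripts. A count of 0 allows up to 3 counts per library, which corresponds to 0.173 to 0.244 CPM with the TMM-scaled library sizes, and covers counting error only. CARD16, which is nearly identical in sequence to the start of CASP1, and the neighbour CASP5 were also at 0 in all samples.

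The order of levels between genes was read in TPM. With vehicle the order was CASP2 (24.2 ± 2.72, SD), PIDD1 (7.76 ± 1.26), CASP6 (5.33 ± 1.17), CASP9 (3.43 ± 0.82), APAF1 (3.09 ± 0.63), CASP8 (0.442 ± 0.193) and CASP10 (0.198 ± 0.288). Only the steps from CASP2 to PIDD1 and from APAF1 to CASP8 separated the sample ranges of neighbours. With nutlin PIDD1 came first (125 ± 12.2), followed by CASP2 (19.3 ± 1.03), CASP9 (4.65 ± 0.56), CASP6 (3.83 ± 0.85), APAF1 (2.39 ± 0.45), CASP8 (0.730 ± 0.592) and CASP10 (0.412 ± 0.152). Here the ranges of PIDD1, CASP2 and CASP9 were separate and those of all later neighbours overlapped. The TPM ratio of PIDD1 to its caspase CASP2 was 0.256 to 0.422 with vehicle (mean 0.323 ± 0.054) and 5.69 to 7.75 with nutlin (mean 6.51 ± 0.65).

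**Figure D4:**
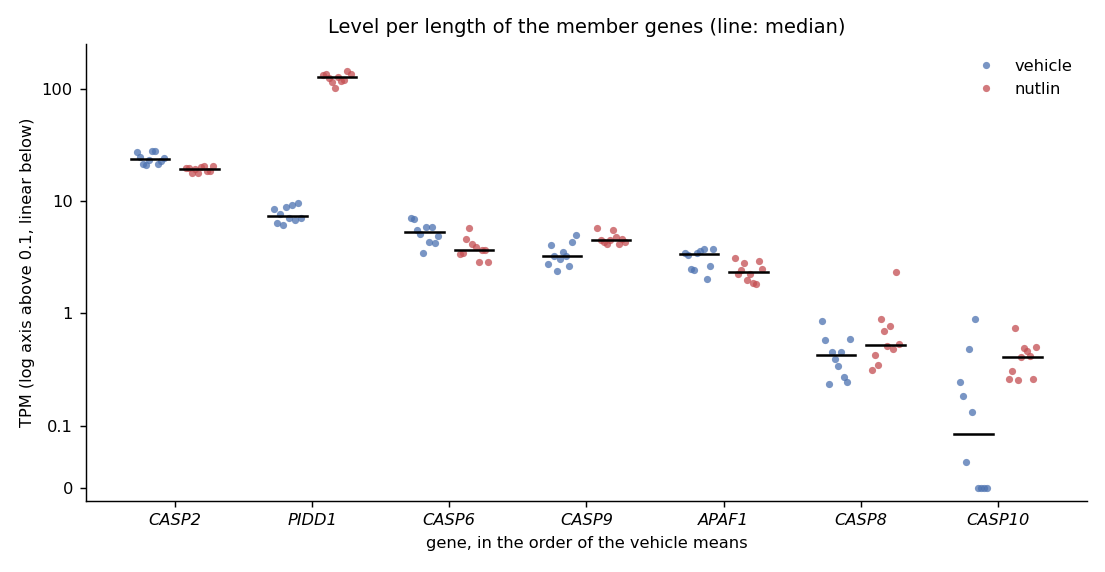
TPM of the 7 detected members in each sample (log axis above 0.1 and linear below), with vehicle in blue, nutlin in red and the median as a line. PIDD1 moved from below CASP2 (means 7.76 and 24.2 TPM) to above it (means 125 and 19.3 TPM), and CASP8 and CASP10 stayed at or below 2.33 TPM in all samples.

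Promoter windows from RefSeq (GRCh38.p14, 250 bases before to 50 after a start) were at hand for 6 members, 10 windows in all, and were searched for the p53 half-site consensus, a palindromic pattern of 10 letters that reads alike on both strands. It was held by 6.63% of all 35116 windows and by 2 member windows, 1 of CASP9 and 1 of CASP8. The other CASP9 window, at the start of CASP9-201 (15524215), held none. For CASP8 the match lay before the start at 201258035, and the windows of the starts at 201233463 and 201260536 held none. The last of these starts lies near that of CASP8-202 (201260500), which held 59.6% of CASP8 counts. The windows of PIDD1, CASP2, CASP6 and APAF1 held none, nor did those of MDM2 and CDKN1A. Since MDM2 and CDKN1A rose under nutlin without a match, neither a match nor its absence here shows whether p53 acts on a gene. Binding of p53 was not tested. The matches are shown within 30 bases, with the pattern in capitals, at chr1:15524959-15524988 (minus strand, 188 bases before a CASP9 start at 15524790) and chr2:201257904-201257933 (plus strand, 121 bases before a CASP8 start).
CASP9 half-site: cggtggcacgAGGCTAGCCCttgggggcgg
CASP8 half-site: ctttccaataAAGCATGTCCagcgctcggg

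The partners of the members were followed in 4 lists. Of 36 genes listed, 32 were tested: 7 rose, 13 fell and 12 were not called, with a median LFC of −0.09, beside 0.19 over all tested genes. The share called was 62.5% (21.9% up and 40.6% down), near the 58.8% of all tested genes (32.3% up and 26.5% down), and the median was 0.10 with scaling by library totals alone. Adjusted p-values below are from the same edgeR quasi-likelihood test. Many of the genes named below were picked from the called ones by the size of their LFC. That their groups did not overlap follows in part from this choice, while the 28.8% covers all tested genes, called or not.

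Among apoptosome partners and inhibitors, 0 of 7 tested rose, 3 fell and 4 were not called. Over all tested genes, 32.3% were called up and 26.5% down. The median LFC of the list was −0.05, and BIRC7 was not tested. CYCS, cytochrome c itself, fell from 213 CPM (199 to 263) to 132 (124 to 160), with an LFC of −0.73 ± 0.055 (adjusted p = 1.72e-13). BIRC2 (cIAP1), a ubiquitin ligase of the inhibitor of apoptosis family, fell from 15.2 CPM (11.9 to 18.4) to 9.21 (7.12 to 10.9), with an LFC of −0.75 ± 0.088. Neither gene overlapped between the groups, as in 28.8% of all tested genes. HTRA2, a mitochondrial protease that counters such inhibitors, fell by an LFC of −0.28 ± 0.044 (adjusted p = 2.91e-06), a call lost with scaling by library totals and with protein_coding transcripts alone. XIAP, a direct inhibitor of CASP9, had 13.8 CPM (8.45 to 19.6) and 17.6 CPM (7.09 to 22.8) and was not called (adjusted p = 0.14).

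Among PIDDosome and death receptor adaptors, 1 of 6 tested rose, 2 fell and 3 were not called (median LFC −0.03). The shares over all tested genes were 32.3% up and 26.5% down. CRADD, the link between PIDD1 and CASP2, had 3.26 CPM (2.49 to 5.16) with vehicle and 3.09 CPM (1.98 to 4.12) with nutlin, and was not called (LFC −0.20 ± 0.15, adjusted p = 0.24). FADD, the link between death receptors and CASP8, fell from 15.1 CPM (12.4 to 19.0) to 10 (8.96 to 10.6), with an LFC of −0.65 ± 0.070 (adjusted p = 2.92e-09). CFLAR (c-FLIP), which restrains CASP8 there, rose from 9.16 CPM (6.12 to 10.3) to 14.3 (12.2 to 15.5), with an LFC of 0.65 ± 0.073 (adjusted p = 1.58e-09). The CASP8-binding protein CASP8AP2 (FLASH), which also serves histone mRNA processing, fell from 65.8 CPM (60.3 to 74.0) to 23.0 (21.0 to 24.9), with an LFC of −1.54 ± 0.043. FADD, CFLAR and CASP8AP2 did not overlap between the groups, as in 28.8% of all tested genes.

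Among inflammasome genes, 4 of 9 tested rose, 2 fell and 3 were not called, beside 32.3% up and 26.5% down over all tested genes (median LFC 0.76; CARD16, CARD17P and CARD18 were not tested). The sensor NLRP1 rose from 0.874 CPM (0.406 to 1.33) to 2.70 (1.58 to 3.28), with an LFC of 1.58 ± 0.17 (adjusted p = 3.37e-09). The LFC of NLRP1 was 0.89 with an effective length offset and 3.29 with protein_coding transcripts alone, and it stayed called in both. NLRC4, another sensor, rose with an LFC of 0.76 ± 0.13 (adjusted p = 2.49e-05). CARD8, a further sensor, fell from 36.1 CPM (32.7 to 38.8) to 23.9 (21.9 to 28.5), with an LFC of −0.57 ± 0.045. PYCARD, the adaptor that recruits CASP1, had 3 counts over all vehicle and 15.5 over all nutlin libraries. Leukocytes express these genes as well, and the leukocyte markers summed to a higher level in every nutlin sample, as given above.

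Among caspase substrates, 2 of 10 rose, 6 fell and 2 were not called (median LFC −0.35), beside 32.3% up and 26.5% down over all tested genes. LMNB1, lamin B1, fell from 362 CPM (342 to 387) to 85.2 (74.7 to 93.4), with an LFC of −2.08 ± 0.041 (adjusted p = 1.07e-26). PARP1, a DNA break sensor, fell from 914 CPM (876 to 1002) to 368 (344 to 417), with an LFC of −1.32 ± 0.032. LMNA, the lamin that CASP6 cuts, rose from 221 CPM (200.4 to 245) to 420.3 (370.3 to 451), with an LFC of 0.91 ± 0.045 (adjusted p = 1.71e-17). None of the 3 overlapped between the groups, as in 28.8% of all tested genes.

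**Figure D5:**
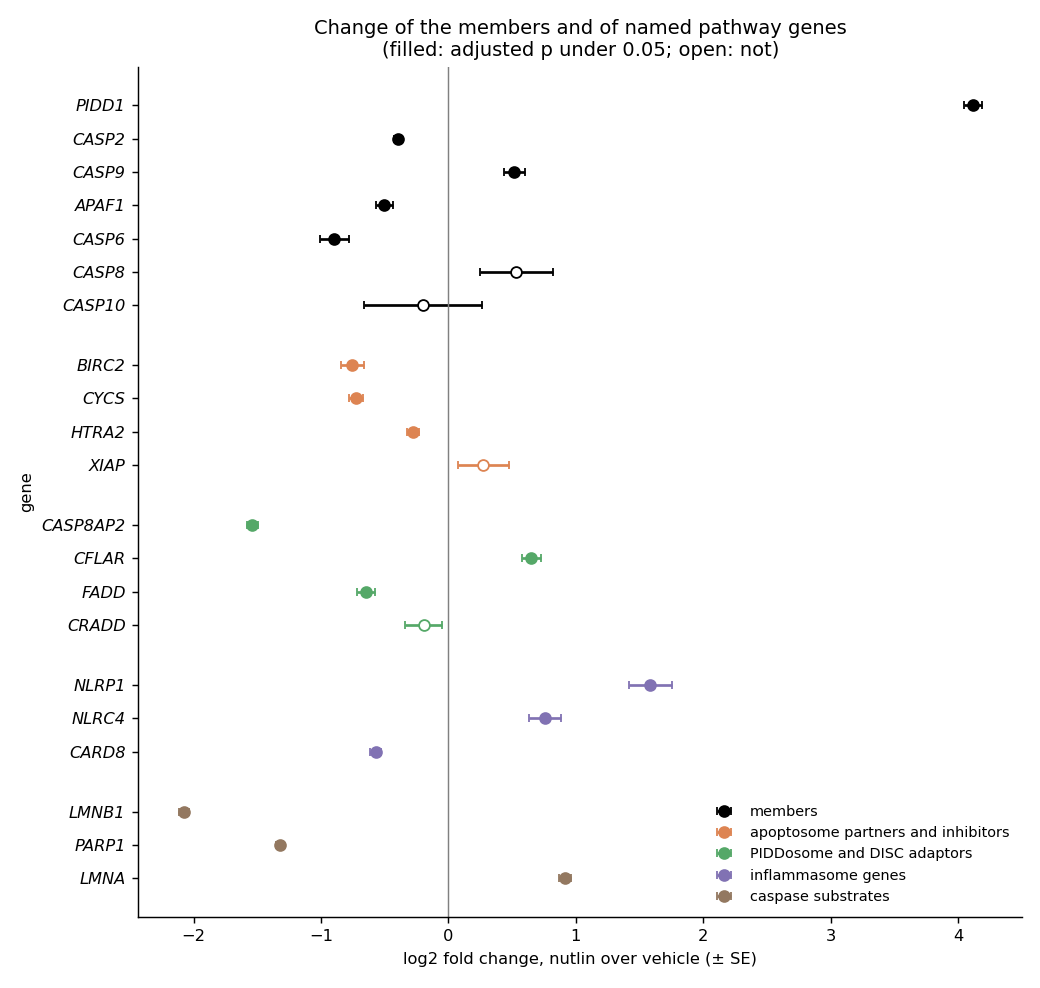
LFC of nutlin over vehicle ± SE on a log2 axis for the 7 tested members (black) and 14 named genes of the 4 lists (colours), filled where the adjusted p was under 0.05. PIDD1, at 4.12, stood above all others shown, and LMNB1, at −2.08, was lowest.

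The genes most like PIDD1 and CASP6 in profile were looked for among the same 15168 genes. The measure was the root mean square difference of log2(CPM + 1) from its vehicle mean over the 20 samples. For PIDD1 they were IL22RA1 (0.181), AGRN (0.184) and the lncRNA ENSG00000276216 (0.187), in log2 units. IL22RA1 had means of 0.0212 CPM with vehicle and 16.5 CPM with nutlin (LFC 9.21). Both IL22RA1 and ENSG00000276216 reached a mean of 1 CPM only through the nutlin samples. AGRN rose from 3.36 to 67.3 CPM (LFC 4.32) and ENSG00000276216 from 0.487 to 23.5 CPM (LFC 5.56). Adding 1 before the log damps the change of genes that are low with vehicle, so these likenesses hold on the log2(CPM + 1) scale and the LFCs differ from the 4.12 of PIDD1. For CASP6 they were PGAP4 (0.148), OLFM3 (0.150) and RAPGEF2 (0.154), of which OLFM3 fell from 10 to 5.90 CPM on average.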

How the data were processed

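RNA of 10 vehicle and 10 nutlin samples had been sequenced by the authors as poly(A) libraries from a strand-marking kit (paired-end). The authors quantified the reads with kallisto 0.42.4 on Ensembl release 85 transcripts of GRCh38. The deposited estimated counts are read pairs assigned to each of 198968 transcripts, not normalized; the deposited TPM values are these counts scaled by effective length and library size, and the deposited effective lengths are in bases. Whether strand was used in counting is not given in the sources used here.

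Transcripts were assigned to genes with GENCODE 44, a later release than the authors' one; 191106 (96.05%) matched, and 7862 were left out. The matched transcripts held 96.7 to 96.8% of the counts of a vehicle sample and 95.7 to 95.9% of those of a nutlin sample. Counts were summed per gene and rounded. Genes of the types protein_coding and lncRNA with at least 1 count per condition were tested with edgeR 4.0.16 (TMM, quasi-likelihood F-test, condition only, Benjamini-Hochberg over all genes, 5% FDR; R 4.3.3). SE came from the spread of log2 CPM (prior count of 2). Transcripts were tested likewise, and usage with diffSpliceDGE. DESeq2 1.42.0 and limma 3.58.1 served as alternatives. The code was tested on simulated data. CPM used TMM-scaled library sizes, on which 3 counts are 0.173 to 0.244 CPM. TPM gave levels only. Plots were made with matplotlib 3.10.9 in Python 3.11.15.

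The members and lists were chosen with earlier results of these data known. Named were all members, in each list up to 3 SDE genes of at least 1 CPM with the largest LFC, plus CYCS, XIAP, CRADD, FADD, CFLAR and PYCARD, the transcripts with at least 5% of a gene's counts, and the nearest 3 profiles of the 2 members with the largest LFC. The replicate numbers, taken from the labels, are shared by 8 pairs and are not said to mark a batch. Some genes fixed for naming are not reported here.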

Additional observations from a re-analysis of the deposited data

Results flagged for a closer look

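The CASP10 level in nutlin replicate 9, 0.927 CPM, stood away from the other 9 nutlin samples, which lay between 0.0627 and 0.421 CPM. The gap to the nearest of them was 0.586 of the group's whole range. It corresponds to 14.9 estimated counts, and the highest vehicle sample had 14.2. In all, 14 groups of 10 values were looked at in this way (7 members in 2 conditions). Chance marks about 1 in 20 such groups where the values are normally distributed. The rate for counts as low as those of CASP10 was not tested.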

How the results depend on the processing

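PIDD1, CASP9, CASP2, APAF1 and CASP6 kept their direction and their call under all 10 alternatives; the LFC ranged from 4.04 to 4.76 for PIDD1, 0.47 to 0.70 for CASP9, −0.47 to −0.21 for CASP2, −0.52 to −0.31 for APAF1 and −1.56 to −0.46 for CASP6. CASP8, not called above, was called in 4: LFC 0.7186 with library size only (adjusted p = 0.0226), 0.609 with the filterByExpr filter (0.0433), 0.6808 with the replicate block (0.0286) and 0.6823 on the same 16 samples without it (0.0267). CASP10 turned to 0.4755 with limma voom (adjusted p = 0.555) and to 1.2882 with the effective length offset (0.0537), within a range of −0.94 to 1.29, and was not tested under filterByExpr; the cause was not tested for either gene. XIAP was called with library size only (0.4644) and with the length offset (0.4237), PYCARD likewise (2.0686 and 1.9405), and HTRA2 lost its call with library size only (−0.0867) and with protein_coding transcripts only (−0.053). Scaling by library size only raised the median LFC of all genes by 0.18, to 0.37, and the share of SDE genes that rose from 54.9% to 67.7% (11560 up and 5514 down, against 8935 and 7340). Between 5 and 6 members were called in each setting, of 7 tested, or of 6 under filterByExpr. Of all genes, 16275 of 27697 were called in the main setting, 13131 of 16347 with that filter and 17074 of 27697 with library size only. Called members of the 4 lists ranged from 17 of 31 tested (protein_coding transcripts only) to 25 of 32 (library size only). With protein_coding transcripts only, 15310 of 26938 genes were called. Shared replicate numbers did not pair the samples (mean correlation of deviations 0.0026, from −0.0445 to 0.0797 over 8 pairs), and 0 vehicle samples correlated best with their own number; the replicate block over 16 samples gave 14315 SDE genes, against 15113 in the same samples without it. Member transcripts called numbered 12 to 14, beside 23.3% of all transcripts in the main setting. Usage was called in 3 members (CASP2, APAF1 and PIDD1, and not CASP9), or 2 with limma, beside 45.3% of all genes in the main setting. CASP8 had at most 40.1 and CASP10 at most 14.9 estimated counts in any sample.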
